A study of Mus musculus with 8 samples.

Results

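The genes described here are 9 parts of the interleukin-1 and inflammasome system: Il1a, Il1b, Il1rn, Il18, Nlrp3, Casp1, Casp4, Pycard and Aim2. They were chosen by symbol, from the transcript accession that each array probe carries, and 12 of the 41174 distinct probes on the array belonged to them. A probe was used where the scanner marked it as well above background, in either channel, on 2 arrays or more. By that rule 11 of the 12 probes and 8 of the 9 genes were measured, among 15182 genes in all, and Aim2 was not.

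The cells were RAW 264.7, an established mouse macrophage-like line of BALB/c origin. They were treated with Lactobacillus acidophilus (2 arrays), Bacillus clausii (3 arrays) or Bifidobacterium bifidum (3 arrays), each at a multiplicity of infection of 1 for 6 h, or left untreated for the same time. The design text states 3 biological replicates for each strain, and 2 arrays for L. acidophilus were analysed here. On each 2-colour array the treated cells' RNA carried Cy5 and the untreated cells' RNA carried Cy3, and the dyes were never swapped, so a dye bias of a probe cannot be told apart from treatment in a ratio against untreated cells. As a single line in culture it holds none of the other cells of an animal.

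Interleukin-1α and interleukin-1β are inflammatory cytokines that macrophages make as precursors after a microbial signal switches on their genes. An inflammasome is a complex of a sensor (NLRP3 or AIM2), the adaptor ASC, which Pycard encodes, and caspase-1, and it cuts the precursors of interleukin-1β and interleukin-18 into their active forms. Caspase-4, known in mice also as caspase-11, responds to bacterial lipopolysaccharide inside the cell, and the interleukin-1 receptor antagonist, from Il1rn, blocks the receptor that both interleukin-1 cytokines share. RAW 264.7 cells are known as a line with little or no ASC. Transcript levels say nothing of cleavage or release.

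The 8 arrays lay on 2 slides of 4, which were scanned separately. Replicate 3 of B. clausii, replicate 3 of B. bifidum and the 2 arrays of L. acidophilus were on slide 1. The remaining 4 arrays, replicates 1 and 2 of the other strains, made up slide 2. Slide 1 was scanned with an extended range, so slide, scan, scanner setting and any set of cultures grown for a slide cannot be told apart. On the B. clausii array of slide 1, 12514 probes were well above background, against 21453 to 26453 on the other 7 arrays. Over all genes, log2 ratios of 2 arrays of the same strain on different slides correlated at 0.0088 to 0.010 (4 pairs), while those of the same strain on one slide correlated at 0.50 to 0.91 (3 pairs). Ratios of different strains on one slide correlated at 0.29 to 0.58 (9 pairs). Results are therefore given with the slide as a block and within a slide beside the fit over all arrays. With the slide as a block, a strain's ratio to untreated cells is a value midway between the slides. A gap between slides then no longer counts as spread, so a pass need not mean a change on each slide. For L. acidophilus, which was on slide 1 only, the midway value borrows the gap from the other strains.

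Of 10 macrophage markers, 9 were on the array, and in untreated cells 6 were well above background on all 4 arrays of slide 1 and 8 on all 4 of slide 2. Mrc1 was not well above background on either slide. Of 7 T and B cell and 6 dendritic cell markers, none was well above background on all 4 arrays of slide 1, and 2 of each were on all 4 of slide 2. None of 5 fibroblast and 5 epithelial markers was so on either slide. Summed on the linear scale, these lists reached at most 861 on slide 1 and 1563 on slide 2.

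The start regions of Il1a, Il1b and Il1rn are shown because these 3 genes had the largest differences between slides among the 8 in untreated cells, as given after them. Each is the 250 bases before a RefSeq start site (assembly GRCm38.p6), 5′ to 3′ on the gene's strand. Capitals mark a match to 1 of 5 motifs, each searched on both strands. They are the TATA box, spelled TATAAA, the AP-1 motif, spelled TGANTCA, the PU.1 motif, spelled GAGGAA, the ISRE, spelled GAAA, any 2 bases and GAAA, and the NF-kB motif.
Il1a, chr2:129309973-129310222, minus strand: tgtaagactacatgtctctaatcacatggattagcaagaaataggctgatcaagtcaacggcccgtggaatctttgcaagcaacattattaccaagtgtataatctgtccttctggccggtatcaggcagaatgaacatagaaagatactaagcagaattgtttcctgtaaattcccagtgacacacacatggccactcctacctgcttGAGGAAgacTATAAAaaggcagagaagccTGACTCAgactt
Il1b, chr2:129371140-129371389, minus strand: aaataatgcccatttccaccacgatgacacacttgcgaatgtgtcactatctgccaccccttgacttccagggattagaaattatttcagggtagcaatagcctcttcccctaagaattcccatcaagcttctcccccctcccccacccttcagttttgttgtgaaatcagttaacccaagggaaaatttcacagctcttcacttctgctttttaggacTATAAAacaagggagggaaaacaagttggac
Il1rn, first of 3 start sites, chr2:24336610-24336859, plus strand: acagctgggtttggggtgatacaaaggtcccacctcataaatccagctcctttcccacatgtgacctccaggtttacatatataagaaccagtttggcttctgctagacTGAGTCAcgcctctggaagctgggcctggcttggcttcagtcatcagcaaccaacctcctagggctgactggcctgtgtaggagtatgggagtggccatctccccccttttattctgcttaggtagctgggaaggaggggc

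Il1a and Il1b each held a TATA box near the start, at −32 to −27 in Il1a and at −31 to −26 in Il1b. The motif was found in 12.4% of 32851 mouse promoter windows of the same length. This share, like those below, counts a match at any position and on either strand. Il1a also held an AP-1 match at −12 to −6 (6.75% of windows) and a PU.1 match at −41 to −36 (23.3% of windows). Il1rn held an AP-1 match at −141 to −135 before its first start site and no match before the other 2. Il18 held a TATA box letter match far from the start, at −175 to −170 on the opposite strand. PU.1 matches also lay before Casp1, Pycard, Aim2 and the second start site of Nlrp3. NF-kB matches (7.25% of windows) lay before the first start site of Nlrp3, at −186 to −177, and before both start sites of Casp4. Before the first of Casp4 they lay at −93 to −83, where matches overlapped, and at −39 to −30. No window of the 9 genes held an ISRE match (2.98% of windows). These matches describe letters and not bound sites.

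**Figure D1:**
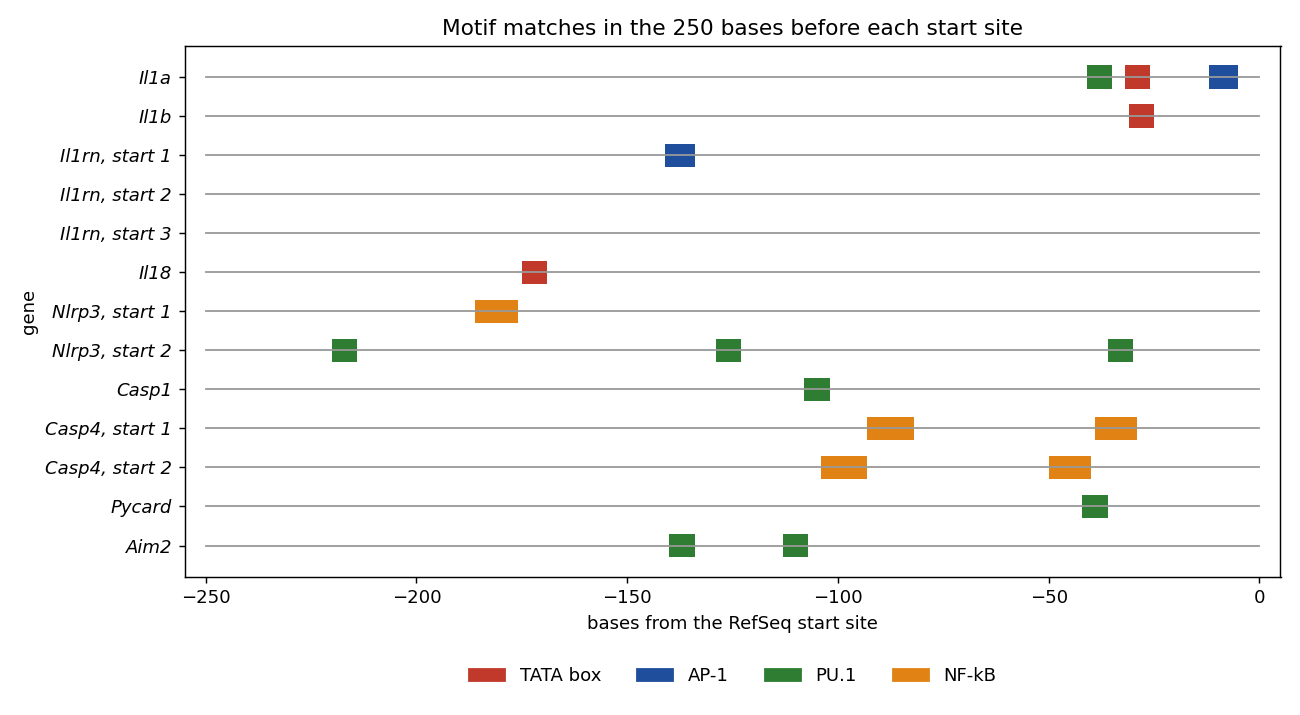
Each row is the 250 bases before a RefSeq start site of a gene (x axis, bases from the start site), and coloured boxes are motif matches on either strand. TATA boxes lie close to the start in Il1a and Il1b, and NF-kB matches lie before both start sites of Casp4 and the first of Nlrp3.

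Il1b, the gene of interleukin-1β, differed far more between the slides than between treated and untreated cells. Its probe has 10 spots per array, and in untreated cells its normalized log2 level was 12.21, 12.17, 10.95 and 12.11 on slide 1 (L. acidophilus 1 and 2, B. clausii 3, B. bifidum 3). On slide 2 it was 6.59, 6.61, 6.57 and 6.61 (B. clausii 1 and 2, B. bifidum 1 and 2). The slides did not overlap, and within slide 1 the dim B. clausii array was the lowest.

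The median spot brightness of Il1b before normalization was 15586, 14368, 482.5 and 11526 in the Cy3 channel of slide 1, against 67.5, 69, 74.25 and 58.5 on slide 2. The local background was 22.25 to 28.5 on all of these arrays. Il1b was well above background in untreated cells on 3 of the 4 slide 2 arrays, and in treated cells on none of the 4. Its level in untreated cells was 5.26 ± 0.27 log2 units higher on slide 1 than on slide 2 (SE, n = 4 each), a 38.3-fold difference, with a limma adjusted p of 8.14e-06. The difference ranked 8 of 15182 genes from the top, while 27% of all genes passed this test. From the scanner's processed signal the difference was 7.89 log2 units, and without the dim array it was 5.56. The nearness of Il1b to background on slide 2 limits the fold, and its size depended on the processing. Untreated channels of a slide may share an RNA, so this p measures only the spread between arrays. Treated cells differed in the same way, with a mean log2 level of 11.41 ± 0.66 on slide 1 and 6.55 ± 0.04 on slide 2 (SD, n = 4 each).

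Within arrays, Il1b was lower in treated than in untreated cells on all 4 slide 1 arrays. The log2 ratio of treated over untreated was −0.43 and −0.45 with L. acidophilus, −0.53 with B. clausii and −0.38 with B. bifidum, and the SD over the probe's spots was 0.05 to 0.10 on these arrays. On slide 2 it was −0.09 and −0.06 with B. clausii and −0.01 and −0.02 with B. bifidum, where the gene was close to background. The 2 slides did not overlap whatever the strain. Over all 8 arrays L. acidophilus gave a ratio of −0.44 ± 0.13 (SE, n = 2, adjusted p = 0.66), B. clausii gave −0.23 ± 0.11 (n = 3, adjusted p = 0.192) and B. bifidum gave −0.13 ± 0.11 (n = 3, adjusted p = 0.561), and none passed. With the slide as a block it passed for B. clausii at −0.30 ± 0.05 (adjusted p = 0.00553) and for B. bifidum at −0.20 ± 0.05 (adjusted p = 0.0286). L. acidophilus did not pass at −0.24 ± 0.07 (adjusted p = 0.0973), a midway value that neither of its arrays had. The ratios of the passing strains were close to 0 on slide 2, so these passes are not a fall seen on each slide. In the block fit 25.3% of all genes passed for B. clausii and 14% for B. bifidum. Within slide 2 neither passed in limma: B. clausii was at −0.08 ± 0.04 (n = 2, adjusted p = 0.158) and B. bifidum at −0.01 ± 0.04 (n = 2, adjusted p = 0.846). On slide 1 alone, with its single B. clausii and B. bifidum arrays, no strain passed (adjusted p of 0.084 to 0.177), where limma called 0.053% of all genes for B. clausii, 0.0463% for B. bifidum and 0% with L. acidophilus (3929 genes at an unadjusted p under 0.05).

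**Figure D2:**
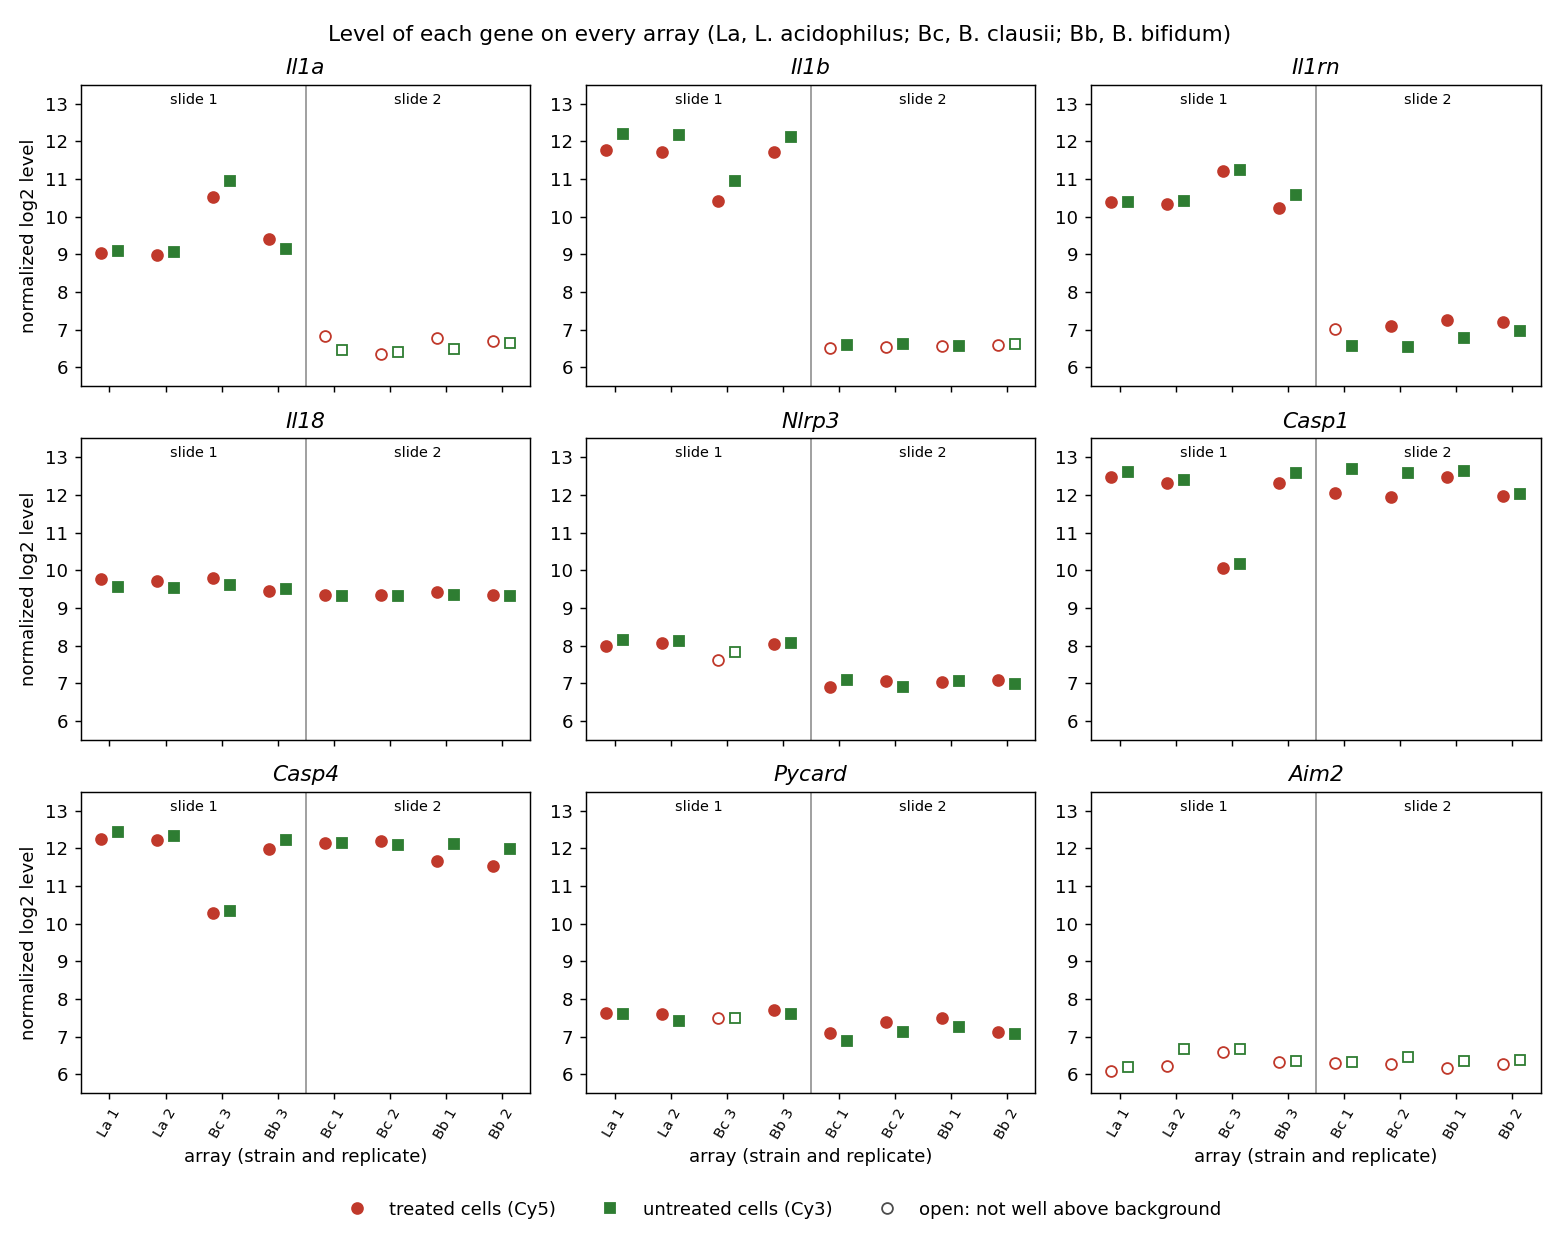
Normalized log2 level (y axis) of each gene on every array (x axis), for treated cells (Cy5, red circles) and untreated cells (Cy3, green squares), with open symbols where the probe was not well above background. Il1a, Il1b and Il1rn sit far higher on slide 1 in both channels, while Il18 sits between 9.3 and 9.8 on every array and Aim2 is open everywhere.

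Il1a, the gene of interleukin-1α, was well above background in untreated cells on slide 1 only. In untreated cells its brighter probe was at a log2 level of 9.09, 9.07, 10.94 and 9.14 on slide 1, and at 6.46, 6.42, 6.49 and 6.64 on slide 2. With all 4 slide 1 arrays above background and none of slide 2, the fold is only a bound. Over all arrays it was 8.32-fold higher on slide 1 (3.06 ± 0.40 log2, limma adjusted p = 0.00105). The dim B. clausii array was the highest of slide 1 and raised this bound, and without it the difference was 2.60 log2. The second probe gave at least 4.40-fold.

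The log2 ratio of Il1a to untreated cells on slide 1 was −0.06 and −0.09 with L. acidophilus, −0.42 with B. clausii and 0.27 with B. bifidum. The arrays therefore lay on both sides of 0. No strain passed over all arrays (adjusted p of 0.429 to 0.953), and the slide 2 ratios rest on spots that were not well above background. For the slide 1 arrays the second probe gave −0.25 and −0.29, −0.05 and 0.04 in the same order of strains. On the dim B. clausii array this probe was not well above background in either channel.

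Il1rn, which encodes the receptor antagonist, stood high on slide 1 together with the 2 cytokines. In untreated cells its brighter probe was at 10.38, 10.43, 11.25 and 10.58 on slide 1, against 6.57, 6.53, 6.78 and 6.98 on slide 2, with no overlap. The difference was 3.94 ± 0.21 log2 units (n = 4 each), or 15.4-fold, with a limma adjusted p of 9.16e-06, and it ranked 24 of 15182. On slide 2 the probe's Cy3 brightness was 69 to 89.5 over local backgrounds of 21 to 27.5, and this nearness to background limits the fold. The second probe, well above background on 3 slide 1 arrays and on none of slide 2, gave at least 2.39-fold, a bound that the first probe's value also meets.

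The Il1rn ratios lay above 0 on slide 2 and close to or below 0 on slide 1. Its log2 ratio on slide 2 was 0.44 and 0.57 with B. clausii and 0.46 and 0.23 with B. bifidum, so all 4 arrays were above 0. On slide 1 it was −0.04 with B. clausii, −0.34 with B. bifidum, and 0.02 and −0.08 with L. acidophilus. Within slide 2, where the level was low, Il1rn was higher after B. clausii by 0.50 ± 0.07 (n = 2, adjusted p = 0.00266) and after B. bifidum by 0.35 ± 0.07 (n = 2, adjusted p = 0.0138). In that fit 56% of all genes passed for B. clausii and 38.8% for B. bifidum. On B. clausii 1 the brighter probe was not well above background in treated cells (brightness 85.5). Over all 8 arrays neither strain passed (0.32 ± 0.16, adjusted p = 0.199, and 0.12 ± 0.16, adjusted p = 0.74), and L. acidophilus was at −0.03 ± 0.19 (adjusted p = 0.986). With the slide as a block B. clausii passed at 0.22 ± 0.06 (adjusted p = 0.0433) and B. bifidum did not at 0.02 ± 0.06 (adjusted p = 0.906). That pass is not a rise seen on each slide, as the B. clausii ratio was −0.04 on slide 1. The second probe was not well above background on slide 2, and gave 0.15 and 0.29 with B. clausii and −0.09 and 0.06 with B. bifidum there.

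Il18, the gene of interleukin-18, was the most even of the cytokine genes across slides. Its probe has 10 spots per array, and in untreated cells it lay at 9.54, 9.54, 9.62 and 9.51 on slide 1 and at 9.33, 9.32, 9.35 and 9.32 on slide 2. The slides did not overlap, but the difference of 0.22 ± 0.09 log2 units did not pass (adjusted p = 0.106). It passed without the dim B. clausii array (0.20, adjusted p = 0.018) and with the scanner's processed signal (0.38, adjusted p = 0.0343). The log2 ratio was 0.22 and 0.17 with L. acidophilus, 0.02, 0.02 and 0.17 with B. clausii, and 0.08, 0.01 and −0.06 with B. bifidum. None passed over all arrays (adjusted p of 0.487 to 0.958), and the largest mean was 0.19 ± 0.08 for L. acidophilus.

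Among the sensors, Nlrp3 was higher on slide 1 and did not pass for any strain. Its untreated log2 level was 8.14, 8.13, 7.84 and 8.07 on slide 1, against 7.07, 6.90, 7.04 and 6.97 on slide 2, so the slides did not overlap. The difference was 1.05 ± 0.11 log2 units (n = 4 each), a 2.07-fold difference (adjusted p = 0.000367), past the 95th percentile of all genes at 0.954. On the dim B. clausii array Nlrp3 was not well above background in either channel. Its log2 ratio was −0.15 and −0.07 with L. acidophilus, −0.18, 0.15 and −0.22 with B. clausii, and −0.02, 0.11 and −0.04 with B. bifidum. The means were between −0.11 and 0.02 with adjusted p of 0.543 to 0.943.

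Aim2, the sensor of DNA in the cytosol, was not well above background in either channel on any of the 8 arrays. Its brightness was 38 to 58 in treated cells and 48.5 to 105 in untreated cells, over local backgrounds of 32 to 41 and 20 to 29. A low level of Aim2 was therefore not detectable on these arrays, and no ratio is given.

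Pycard, the gene of the adaptor ASC, gave dim spots and 2 probes that disagreed. The brighter probe read 53.5 to 308 in treated cells and 87 to 341 in untreated cells, over local backgrounds of 28 to 34 and 21 to 29.5. Its untreated log2 level was 7.59, 7.42, 7.49 and 7.59 on slide 1 and 6.89, 7.12, 7.25 and 7.08 on slide 2, a difference of 0.44 ± 0.11 that passed (adjusted p = 0.0237). The second probe gave −0.36 ± 0.23 (adjusted p = 0.289), and the mean of both probes 0.04 (adjusted p = 0.862). The call was also lost when any of 4 arrays was left out (L. acidophilus 1, B. clausii 1 or 2, or B. bifidum 3, with 0.37 to 0.45 and adjusted p of 0.0613 to 0.0791). In the strain comparisons the brighter probe was above 0 on 7 of 8 arrays, at 0.03 to 0.26, and no strain passed over all arrays (means of 0.11 to 0.15, adjusted p of 0.213 to 0.841). On slide 2 alone B. clausii passed at 0.23 ± 0.06 (adjusted p = 0.0234), where the second probe read 0.10 and −0.16.

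Casp1, the protease at the centre of the canonical inflammasome, was lower after B. clausii, and the size rested on slide 2. Its log2 ratio with B. clausii was −0.65 and −0.64 on slide 2 and −0.12 on the dim slide 1 array. With B. bifidum it was −0.16, −0.04 and −0.27, and with L. acidophilus −0.14 and −0.07, so all 8 arrays lay below 0. The B. clausii mean was −0.47 ± 0.11 (SE, n = 3), or 0.722 times the untreated level, with an adjusted p of 0.0468. Casp1 was the only one of the 8 genes to pass for B. clausii, where 4.77% of all genes passed. B. bifidum (−0.16 ± 0.11, adjusted p = 0.476) and L. acidophilus (−0.10 ± 0.13, adjusted p = 0.902) did not pass.

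Casp1 passed for B. clausii also with slide as a block (−0.44 ± 0.10, adjusted p = 0.0164) and on slide 2 alone (−0.64 ± 0.05, adjusted p = 0.000373). The call was lost without any of B. clausii 1 or 2 (−0.38 and −0.39, adjusted p = 0.347 and 0.345), B. bifidum 1 or 2 (adjusted p = 0.0802 and 0.0866) or either L. acidophilus array (adjusted p = 0.101 each). It was also lost with no background correction, the scanner's processed log ratio, median centring, no filter and the mean of a gene's probes. Leaving out B. clausii 3 gave −0.64 with an adjusted p of 0.000836. In untreated cells Casp1 lay at 12.62, 12.38, 10.18 and 12.59 on slide 1 and at 12.70, 12.59, 12.64 and 12.02 on slide 2. The slides overlapped, and the difference of −0.55 ± 0.53 (adjusted p = 0.488) became 0.04 without the dim array.

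**Figure D3:**
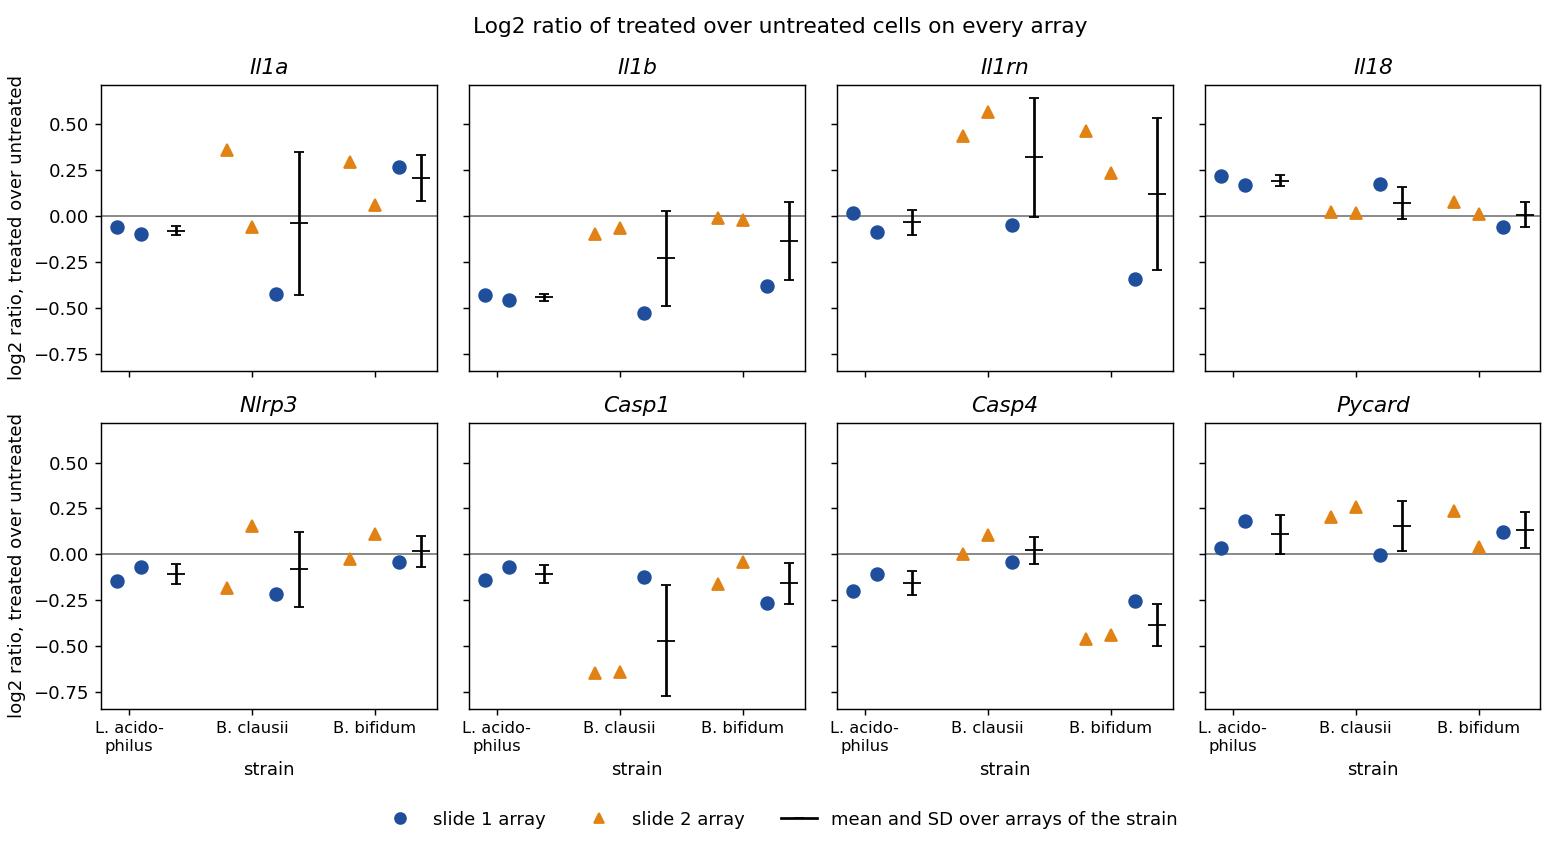
Log2 ratio of treated over untreated cells (y axis) by strain (x axis), with a circle for each slide 1 array, a triangle for each slide 2 array and the mean and SD over the arrays of a strain in black. Il1b is lower on slide 1 than on slide 2 with B. clausii and with B. bifidum, Il1rn is above 0 on all 4 arrays of slide 2 and between −0.34 and 0.02 on slide 1, Casp1 is lowest on the B. clausii arrays of slide 2, and Casp4 is lower with B. bifidum than with B. clausii on every array.

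Casp4, the sensor of intracellular lipopolysaccharide, was lower after B. bifidum. Its log2 ratio with B. bifidum was −0.46 and −0.44 on slide 2 and −0.25 on slide 1. With B. clausii it was 0.0004, 0.10 and −0.04, and with L. acidophilus −0.20 and −0.11. The B. bifidum arrays were all below those of the other strains. Their mean was −0.38 ± 0.07 (SE, n = 3), or 0.767 times the untreated level, with an adjusted p of 0.0391. Casp4 was the only one of the 8 genes to pass for B. bifidum, where 1.73% of all genes passed (0.507% higher and 1.22% lower). B. clausii (0.02 ± 0.07, adjusted p = 0.864) and L. acidophilus (−0.15 ± 0.09, adjusted p = 0.758) did not pass.

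Casp4 passed for B. bifidum with slide as a block (−0.37 ± 0.06, adjusted p = 0.00887) and on slide 2 alone (−0.45 ± 0.05, adjusted p = 0.00164). The call was lost without any of B. bifidum 1 or 2 (−0.34 and −0.36, adjusted p = 0.362 and 0.364), B. clausii 1 or 2 (adjusted p = 0.0815 and 0.081) or either L. acidophilus array (adjusted p = 0.101 each). It was also lost with no background correction, the scanner's processed log ratio and median centring. In untreated cells Casp4 lay at 12.44, 12.32, 10.33 and 12.23 on slide 1 and at 12.13, 12.10, 12.13 and 11.98 on slide 2. The difference of −0.25 ± 0.44 (adjusted p = 0.71) was 0.25 with an adjusted p of 0.0297 without the dim array.

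No gene of the 8 passed for L. acidophilus (Il1b and Il18 had an unadjusted p under 0.05), and none of the 15182 genes did in limma's fit over all arrays (0%), with 1097 of them at an unadjusted p under 0.05. When slide entered as a block, 2.77% of all genes passed for this strain, and again none of the 8. That value leans on the other strains, because both L. acidophilus arrays were on slide 1. With the slide as a block 3 of the 8 genes passed for B. clausii (Il1b, Il1rn and Casp1), where 25.3% of all genes did, and 2 for B. bifidum (Il1b and Casp4), where 14% did. Replicate numbers were taken to pair the B. clausii and B. bifidum arrays. Replicate 3 of both strains lay on slide 1, so such pairing cannot be told apart from slide. The fit with the number as a block held all 8 arrays. It thus also blocked L. acidophilus 1 and 2 with their namesakes on slide 2, which the numbers do not pair. With the number as a block 3 of the 8 genes passed for B. clausii: Il1b at −0.23 (adjusted p = 0.0212), Il1rn at 0.32 (adjusted p = 0.0156) and Casp1 at −0.47 (adjusted p = 0.0171). In that fit 28.5% of all genes passed, so the share of the 8 was near the background. In the counts on slide 2 alone 3 genes passed for B. clausii (Il1rn, Casp1 and Pycard), against 56% of all genes, and 2 for B. bifidum (Il1rn and Casp4), against 38.8%. Both shares of the 8 were below those of all genes.

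Between B. clausii and B. bifidum none of the 8 genes passed (Casp4 had an unadjusted p under 0.05), and 0.0263% of all genes did (4 genes), with 1799 at an unadjusted p under 0.05. The difference of Casp4, B. clausii minus B. bifidum, was 0.40 ± 0.10 log2 units (n = 3 each, adjusted p = 0.259), and that of Casp1 was −0.31 ± 0.15 (adjusted p = 0.462). The 3 arrays of each strain did not overlap for Casp4. Within slide 2, where 29.7% of all genes passed, both genes did, Casp4 at 0.50 ± 0.07 (n = 2 each, adjusted p = 0.00511) and Casp1 at −0.54 ± 0.07 (adjusted p = 0.00445). With the slide as a block Casp4 had an adjusted p of 0.0548 and Casp1 of 0.193, and 1.53% of all genes passed. Without the dim B. clausii array, Casp4 (0.44, adjusted p = 0.0269) and Casp1 (−0.49, adjusted p = 0.0146) passed, and without B. bifidum 3 Casp4 alone did (0.47, adjusted p = 0.0438). The other 6 genes differed by between −0.25 and 0.20 with adjusted p of 0.657 to 0.975.

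In untreated cells 5 of the 8 genes were higher on slide 1 (Il1a, Il1b, Il1rn, Nlrp3 and Pycard) and none was lower, where 10.6% of all genes were higher and 16.4% lower. Pycard passed on its brighter probe only, while its second probe gave −0.36 ± 0.23. The median of all genes was −0.0863 log2 units and its 25th and 75th percentiles were −0.444 and 0.275. Macrophage markers summed to 125966 to 137692 in untreated cells of slide 1 and to 68227 to 72136 on slide 2, a sum to which Cd14 and Mpeg1 gave most. Of 8 tested, 4 were higher on slide 1 (Adgre1, Lyz2, Cd14 and Mpeg1) and 1 was lower, Fcgr1, by −3.00 ± 0.25 log2 units (adjusted p = 0.000101). Neutrophil markers, of which 6 of 7 were on the array, summed to 15734 to 72685 on slide 1 and to 635 to 721 on slide 2. Elane and Ltf were not well above background on slide 1, nor was Camp on slide 2. S100a8, which activated macrophages also make, carried that sum: its level was 7.53 ± 0.47 log2 units higher on slide 1 (adjusted p = 1.93e-05). Of 5 neutrophil markers tested, 3 were higher on slide 1 and 0 lower. The other 2 higher were Camp (2.69 ± 0.10, limma adjusted p = 1.48e-06) and S100a9 (1.34 ± 0.40, limma adjusted p = 0.0398). Osteoclast markers summed to 5194 to 7922 on slide 1 and to 1448 to 1840 on slide 2, with Calcr not well above background on slide 1. Of 6 osteoclast markers tested, 4 were higher on slide 1 (Acp5, Ctsk, Dcstamp and Mmp9) and 0 lower. The part of these markers and of the scanner setting in the slide differences was not tested. Without the dim array, as given above, the difference of Casp1 changed sign and that of Casp4 became positive, while Il1a and Il1b stayed far higher on slide 1.

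**Figure D4:**
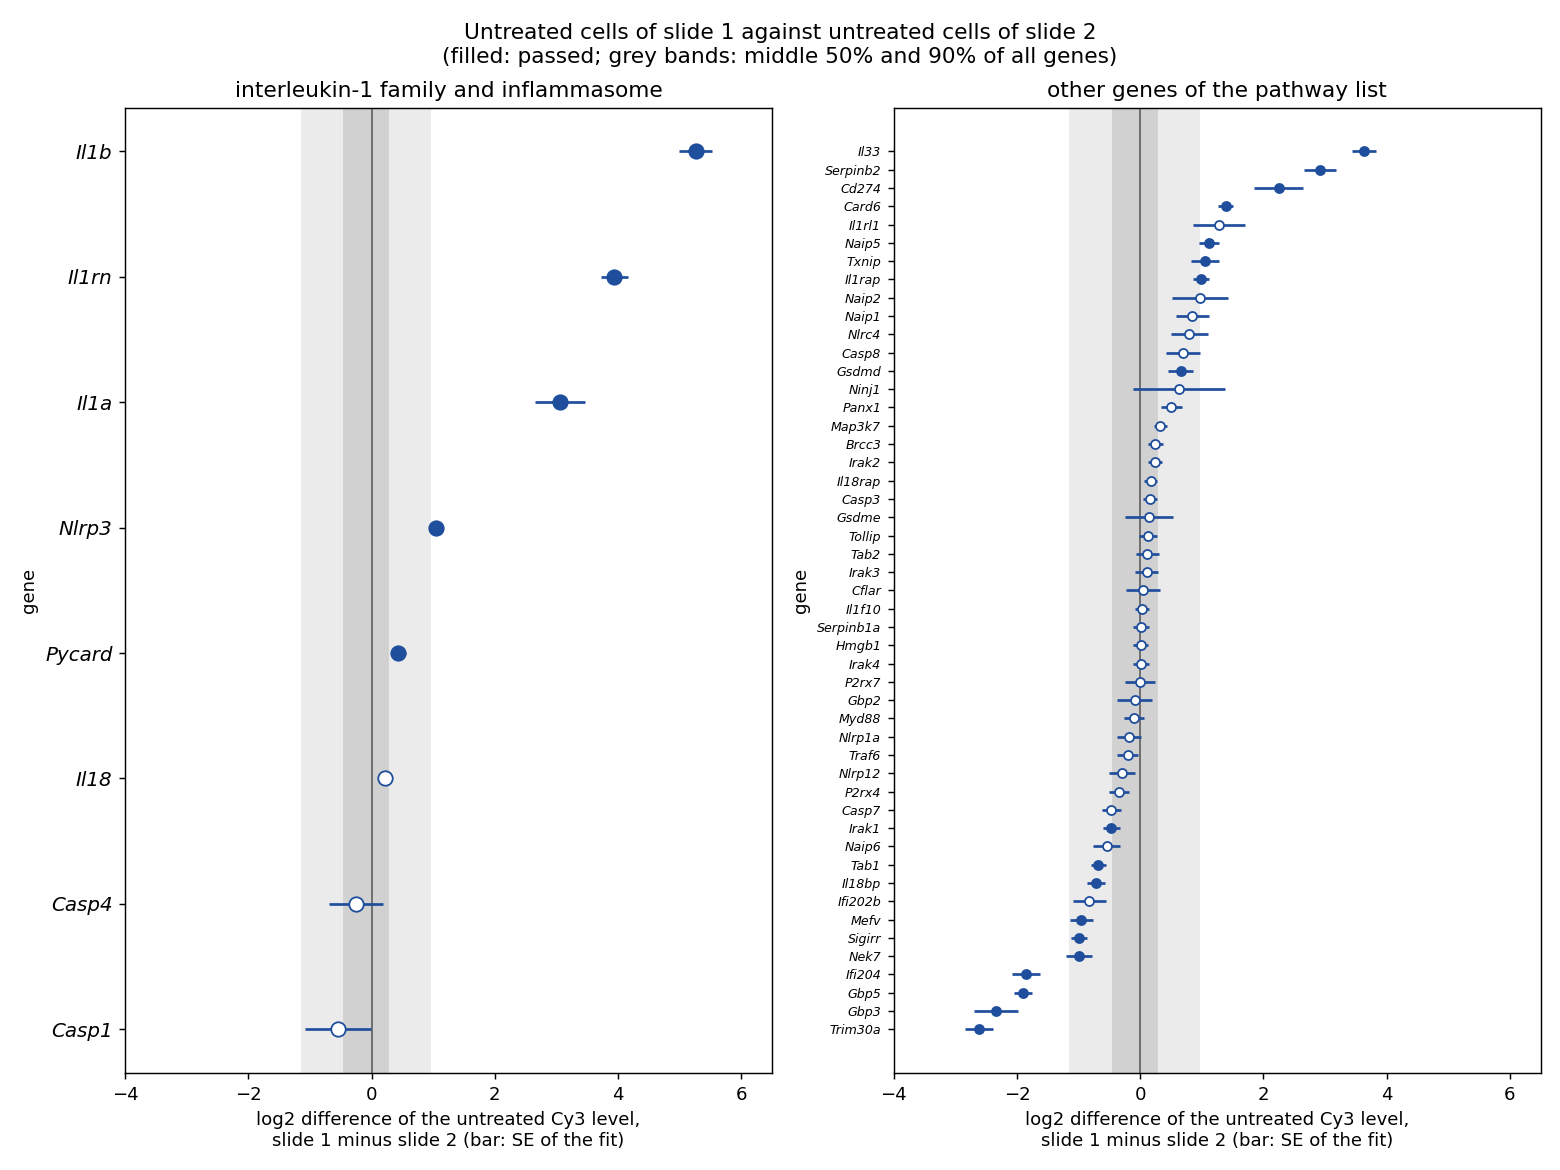
Log2 difference of the untreated Cy3 level, slide 1 minus slide 2 (x axis, bars are the SE of the fit), for the 8 measured genes on the left and 49 other pathway genes on the right, filled where the adjusted p was under 0.05. Grey bands hold the middle 50% and 90% of all genes. Il1b, Il1rn, Il1a and Nlrp3 lie above both bands. Most of the pathway genes on the right lie within the bands, such as Hmgb1 and Irak4. Some lie outside, among them Il33, Serpinb2 and Cd274 above and Trim30a, Gbp3, Gbp5 and Ifi204 below.

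A wider list of 64 genes of the pathway (receptors, adaptors, kinases, other sensors, pore formers and inhibitors) had 49 measured members. For B. clausii 3 were higher and 2 lower, with a median log2 ratio of −0.129 against −0.00666 over all genes, of which 2.17% were higher and 2.6% lower. For L. acidophilus and for B. bifidum 0 passed in limma (3 and 12 at an unadjusted p under 0.05), with medians of 0.00173 and −0.0379 against 0.0102 and −0.0136 over all genes. Between B. clausii and B. bifidum 0 passed (13 at an unadjusted p under 0.05), at a median of −0.0858 against 0.0133. With slide as a block 19 passed for B. clausii (4 higher and 15 lower), 8 for B. bifidum (1 higher and 7 lower), 1 for L. acidophilus and 1 between B. clausii and B. bifidum, where 25.3%, 14%, 2.77% and 1.53% of all genes did. On slide 2 alone 35 passed for B. clausii (7 higher and 28 lower), against 56% of all genes, and 24 for B. bifidum (7 higher and 17 lower), against 38.8%. Between these strains 20 passed there (5 higher and 15 lower), against 29.7%.

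Hmgb1, a chromatin protein that acts as a danger signal outside the cell, was higher after B. clausii by 0.92 ± 0.18 log2 units (n = 3, adjusted p = 0.0396). Its log2 ratio was 1.26, 1.23 and 0.26 with B. clausii, against 0.48, 0.45 and 0.10 with B. bifidum and 0.13 and 0.12 with L. acidophilus. Both B. clausii arrays of slide 2 were high and the slide 1 array was near the other strains, as with Casp1. Naip2, a sensor of bacterial secretion-system proteins that acts with Nlrc4, had a mean of −0.80 ± 0.15 (adjusted p = 0.0396), with −1.12, −1.07 and −0.21 on the B. clausii arrays. Irak3, an inhibitor of signalling from interleukin-1 and Toll-like receptors, had a log2 ratio of −1.001, −0.89 and −0.18 on them (mean −0.69 ± 0.14, adjusted p = 0.0405).

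Il33, an alarmin of the interleukin-1 family, was higher after B. clausii by 0.44 ± 0.10 (adjusted p = 0.0441). Its ratio was 0.24, 0.42 and 0.66 on the B. clausii arrays, 0.38, 0.04 and 0.27 with B. bifidum, and 0.71 and 0.67 with L. acidophilus. All 8 arrays lay above 0, and L. acidophilus passed only once slide was a block (0.59, adjusted p = 0.0409), a midway value below both of its arrays. Like Il1a, it was well above background on slide 1 only: in untreated cells it lay at 9.97, 9.92, 9.23 and 10.06 on slide 1 and at 6.06 to 6.27 on slide 2. Il1f10, another family cytokine, also passed for B. clausii (0.48 ± 0.11, adjusted p = 0.0468), on a probe that was above background in untreated cells on 2 of 8 arrays.

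Between the slides, 8 pathway genes were higher in untreated cells of slide 1 and 10 lower, with a median of 0.0537, against 10.6% of all genes higher, 16.4% lower and a median of −0.0863. For each direction, the 4 of lowest p are named, a choice made after the values were seen. Il33 (fitted difference 3.64 ± 0.19 log2) and Serpinb2, an inhibitor of proteases (2.92 ± 0.26), were higher on slide 1 and not well above background on slide 2, so only bounds of at least 10.8-fold and 7.33-fold are given. For Serpinb2 the dim B. clausii array was the highest of slide 1 (10.21, others 9.08 to 9.11) and raised the bound. The other higher genes were Card6 (1.39 ± 0.12) and Il1rap, the shared receptor chain of the family (0.98 ± 0.13). Those lower were Trim30a (−2.61 ± 0.23), Gbp5, an interferon-induced GTPase that promotes inflammasome assembly (−1.91 ± 0.15), Ifi204, a DNA sensor (−1.85 ± 0.22), and Sigirr, an inhibitor of the receptor family (−0.99 ± 0.13). Their adjusted p lay between 8.14e-06 and 0.00107.

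The genes whose log2 ratio over the 8 arrays was most like that of Il1b were Cdc42bpb (Pearson r = 0.992), Iscu (0.988) and Taf5l (0.987), of 14886 genes with a value on every array. Those most like Il1rn were Tmem198 (0.991), Tacc3 (0.991) and Eno4 (0.987), and those most like Nlrp3 were Slc25a42 (0.951), Tmem170 (0.924) and Fam124b (0.919). The 8 points fall into 2 slides and 3 strains, and the highest of so many values is given as a description.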

How the data were processed

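Per the file headers, Agilent Feature Extraction 10.7.3.1 wrote the deposited intensity of each spot and its background on a linear scale (10.5.1.1 per the submitters' processing notes). A processed intensity and a log10 ratio, red over green, stand beside it, per the file headers. The authors' deposited value table equalled that log10 ratio to within 0.005 on every array. No build or annotation is used here beyond the names below.

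In limma 3.58.1 (R 4.3.3) the median spot signals were background-corrected with normexp (offset 50) and log2 ratios were normalized within arrays by loess, control spots at weight 0. Outlier spots were removed, spots of a probe averaged, and a gene represented by its brightest kept probe, with other probes given where they differ. Transcript accessions matched a RefSeq table (GRCm38.p6) for 27198 probes and not for 13976. A mean per strain over all 8 arrays was fitted with lmFit and eBayes and adjusted by the Benjamini-Hochberg method over 15182 genes at 0.05; 296 genes lacked a value on some array. Untreated levels are the Cy3 channel after Aquantile normalization, slide 1 minus slide 2. All spreads and p-values measure differences between these arrays, which may be technical, since no label links an array to a culture, and the number of arrays limits the precision.

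Deviations from group means correlated at 0.30 to 0.46 between B. clausii and B. bifidum arrays of the same number (every pair over 0.1) and at −0.09 to −0.06 between L. acidophilus arrays and their namesakes. The numbers were therefore taken to pair B. clausii and B. bifidum only. Their replicate 3 lies on slide 1 and their replicates 1 and 2 on slide 2, so this check cannot tell pairing from slide. Arrays of unlike number were not compared in it. The genes and lists were chosen with earlier results of these data known. Named from the pathway list were passing genes with the smallest p, up to 4 per direction; from the likeness of log2 ratios, 3 genes each for Il1b, Il1rn and Nlrp3. Alternatives were the background correction, scaling, probe filter, probe averaging, slide, replicate block and each array left out; slide 1 alone was chosen after seeing the data. Scripts were tested on simulated data.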

Additional observations from a re-analysis of the deposited data

Results flagged for a closer look

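In 5 of 16 groups of 4 untreated levels examined, 1 array stood apart from the other 3 by Dixon's criterion, which chance alone meets in about 1 group in 20. B. clausii replicate 3, the dim array of slide 1, accounted for 4 of them. Its untreated log2 level of Il1a was 10.94, against 9.069 to 9.139 on the other 3 arrays of the slide. It was low for 3 other genes, with 10.95 for Il1b (others 12.11 to 12.21), 10.18 for Casp1 (others 12.38 to 12.62) and 10.33 for Casp4 (others 12.23 to 12.44). On slide 2, B. bifidum replicate 2 had an untreated Casp1 level of 12.02, against 12.59 to 12.70 on the other 3.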

How the results depend on the processing

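In the 5 comparisons, direction and call were kept for 62 of 70, 59 of 78, 63 of 78, 66 of 70 and 35 of 40 single-gene values under other settings (L. acidophilus, B. clausii and B. bifidum against untreated, B. clausii against B. bifidum, and the slide difference). The count of genes that passed for B. clausii, 1 of 8, was 0 with no background correction, with the scanner's processed log ratio, with median centring, with no filter, with the mean of a gene's probes and on slide 1 alone, and 3 with the slide as a block, on slide 2 alone and with the replicate block; leaving out single arrays gave 0 to 3. For B. bifidum, 1 of 8, it was 0 with no background correction, the scanner's ratio, median centring and slide 1 alone, and 2 with the slide as a block and on slide 2 alone, with 0 to 1 when single arrays were left out. For L. acidophilus, 0 of 8, the replicate block gave 1 (Il1b at −0.58, adjusted p = 0.0302), though these numbers do not pair that strain. B. clausii against B. bifidum, 0 of 8, gave 2 on slide 2 alone and 0 to 2 with single arrays left out. The replicate block changed no call beyond these and those of Il1b and Il1rn for B. clausii. The slide difference passed for 4 to 7 of the 8 genes throughout.

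Median centring moved the median of all genes to 0.142, −0.224 and −0.355 for L. acidophilus, B. clausii and B. bifidum and turned the sign of 12 values, none of them called. They were Il1a 0.13, Il1rn 0.25, Nlrp3 0.024, Casp1 0.35 and Casp4 0.29 for L. acidophilus, Il1a 0.032, Il18 −0.35 and Casp4 −0.49 for B. clausii, and Il1rn −0.021, Il18 −0.50, Nlrp3 −0.10 and Pycard −0.0050 for B. bifidum. The slide block turned Il1a (0.044) and Il1rn (0.28) for L. acidophilus and Nlrp3 (−0.0077) for B. bifidum. Slide 2 alone turned Il1a for B. clausii (0.15) and Il18 for B. clausii against B. bifidum (−0.022). Slide 1 alone turned Il1rn (−0.045), Casp4 (−0.040) and Pycard (−0.0011) for B. clausii and Il1rn (−0.34), Il18 (−0.056) and Nlrp3 (−0.041) for B. bifidum. The scanner's values turned Nlrp3 for B. bifidum (−0.024) and the slide difference of Casp4 (0.019), and the mean of probes turned Pycard between the strains (−0.012). The cause was not tested.

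With single arrays left out, values that changed sign ranged as follows. For L. acidophilus, Il1rn was between −0.083 and 0.016. For B. clausii, Il1a was between −0.24 and 0.15 and Casp4 between −0.020 and 0.052. For B. bifidum, Il1rn was between −0.053 and 0.35, Il18 between −0.023 and 0.043 and Nlrp3 between −0.032 and 0.045. Between these strains, Il1b was between −0.22 and 0.055, Il1rn between −0.028 and 0.38 and Pycard between −0.031 and 0.098. The slide difference of Casp1 was between −0.77 and 0.044 and that of Casp4 between −0.46 and 0.25. Where a strain is left with 1 array, that array is assumed to vary like the others. On slide 2 Il1a, and Il1b in treated cells, were not well above background, which limits every ratio there.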
